A study of Homo sapiens with 4 samples.

Results

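The unfolded protein response (UPR) and ATF4 target genes were a set of 52 genes chosen by name, which are ordered here in 5 groups by their known roles. The PERK-ATF4 branch had 20 members, the IRE1-XBP1 branch 7, the ATF6 branch 14, endoplasmic reticulum (ER)-associated degradation (ERAD) 8, and 3 more act in ER oxidation and calcium. Of the 52, 51 were found under their listed symbol among the 19399 gene rows used, and SELS was found under its synonym VIMP. The cells were A549, an established line of human alveolar adenocarcinoma, and the compared groups were NUPR1 (p8) knockdown cells and control cells. All groups share the A549 background, and the reagent used for the knockdown, the kind of control and the culture conditions go unstated in the labels. Polyadenylated RNA was sequenced as 4 libraries, with 1 single-end and 1 paired-end library per group, but the deposited tables carry 1 column per group. No value has a replicate, so no test between the groups was possible and each ratio below describes these 2 columns.

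The UPR is the program by which cells adjust protein folding capacity when unfolded proteins build up in the ER. PERK phosphorylates eIF2alpha, which slows translation while favouring translation of ATF4, a transcription factor of amino acid synthesis and stress genes. IRE1 splices the XBP1 mRNA, and ATF6 is cut from the membrane in the Golgi, so that each yields an active factor for genes of folding, export and degradation. NUPR1 is itself known as a stress-induced nuclear protein that is a target of ATF4. Gene counts show transcript levels, and neither phosphorylation, XBP1 splicing nor ATF6 cleavage can be read from them.

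The columns held 16635336 reads for the knockdown and 20289107 for the control. Transcript levels were expressed in CPM after TMM scaling, that is, as read counts made comparable between columns of unequal depth, with 95% Poisson intervals, and differences as the log2 ratio of knockdown over control with 95% exact intervals, all of which cover counting error only. NUPR1 had 71 reads in knockdown cells and 197 in control cells, 4.23 CPM (3.30 to 5.33) against 9.80 CPM (8.48 to 11.3), and so lower, as labelled. The level of the vesicle fusion gene SNAP25 was also lower, at 2.74 CPM against 14.7 CPM. The labels give no expectation for SNAP25, so its level is no check on the columns. Of the 6 epithelial markers with a row, 4 reached 5 CPM. KRT8 had 10479 CPM against 8775 CPM and KRT18 had 9129 CPM against 8071 CPM, while KRT7 was lower at 1952 CPM against 2415 CPM. CDH1 was higher in knockdown cells at 71.3 CPM against 43.0 CPM. EPCAM had 4.05 CPM against 4.18 CPM, and KRT19 was scarce at 1.31 CPM against 2.29 CPM. The surfactant genes that define alveolar type II cells were low, with SFTPC at 1.97 CPM against 1.84 CPM, and 1 of the 9 alveolar type II markers with a row reached 5 CPM. The 4 leukocyte markers with a row summed to 1.85 CPM against 1.24 CPM, and the 7 fibroblast and endothelial markers to 4.59 CPM against 2.94 CPM. Within the last list CDH5 had 18 reads against 3, DCN 12 against 6, VWF 10 against 6 and PECAM1 0 against 2. Their part in the differences below was not tested.

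Transcripts of the UPR set lay close to their control level, with a single large difference. Of the 52 members, 50 had a mean of at least 5 CPM, the level required for a comparison. Only 1 of these 50, the ubiquitin ligase adaptor KLHL24, was higher in knockdown cells by 1.5-fold or more, and only 1, the proline synthesis enzyme PYCR1, was lower by as much. Among all 10689 genes at that level, 3.72% lay above control by that margin, 4.44% below it and 8.17% on either side. Of the 3104 genes at or above the members' median level, 65 were higher and 78 lower by that margin, and the 2 of 50 members (4%) lay close to this share (4.61%). The median log2 ratio of the 50 members was 0.04, with quartiles at -0.14 and 0.14, beside a median of 0.01 and quartiles at -0.18 and 0.19 over all 10689 genes. Members were more abundant than most genes (a median of 63.0 CPM against 32.9 CPM over all), and the 3104 genes at or above that level had quartiles at -0.14 and 0.17. By any margin, 28 of the 50 members were higher and 22 lower. Over all 10689 genes 5469 were higher and 5220 lower, and over the 3104 genes 1657 and 1447. The counts of higher and lower genes per branch or list below are to be read beside these. The members together took 7260 CPM in knockdown cells and 6970 CPM in control cells. In bulk RNA a lower level can come from fewer expressing cells or from less RNA per cell, which cannot be told apart.

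Counting error alone left 29 of the 50 members with an interval that did not include equal levels. The same held for 54.3% of all genes and for 71.3% of the 3104 genes at or above the members' median level, where intervals are narrower. The members' share of 58% lay above the first and below the second. In the PERK-ATF4 branch log2 ratios ran from -0.65 to 1.32, whereas the IRE1-XBP1 branch lay between -0.12 and 0.22 and ERAD between 0.01 and 0.21. PERK-ATF4 leaned below control, with 12 of its 19 measured genes beneath it and 7 above (branch median -0.17). The 31 measured genes of the other groups leaned upward, 21 above control against 10 beneath it (median 0.06). Equal levels fell outside the interval for 15 of the 19 PERK-ATF4 genes and for 14 of the 31 others.

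**Figure D1:**
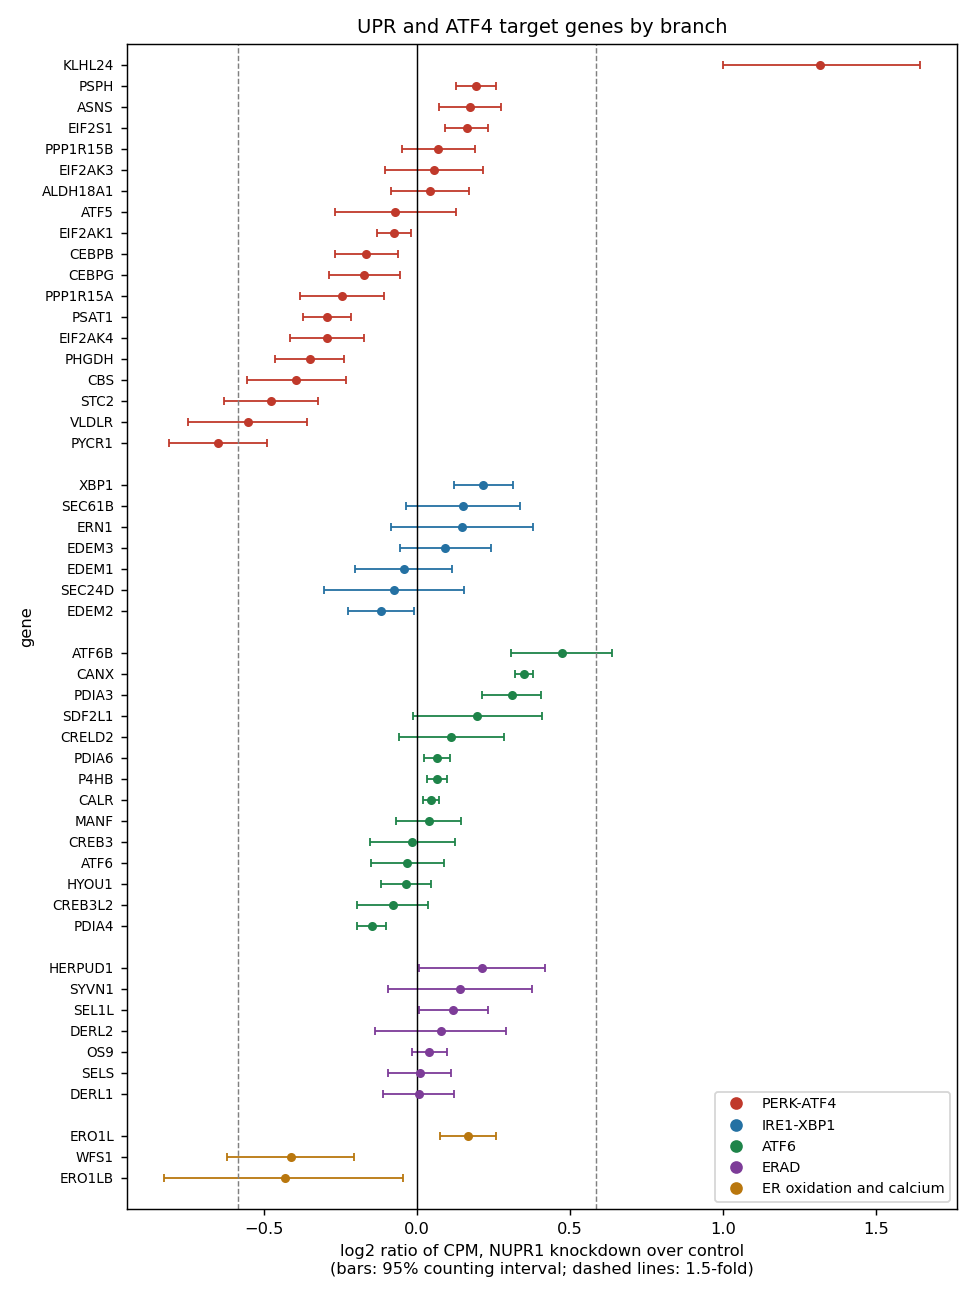
Log2 ratio of CPM, knockdown over control, on the x axis for each of the 50 members at 5 CPM or more, coloured and grouped by branch, with 95% counting intervals as bars and dashed lines at 1.5-fold. KLHL24 (1.32) and PYCR1 (-0.65) lie outside the dashed lines, and the IRE1-XBP1, ATF6 and ERAD members lie between them.

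**Figure D2:**
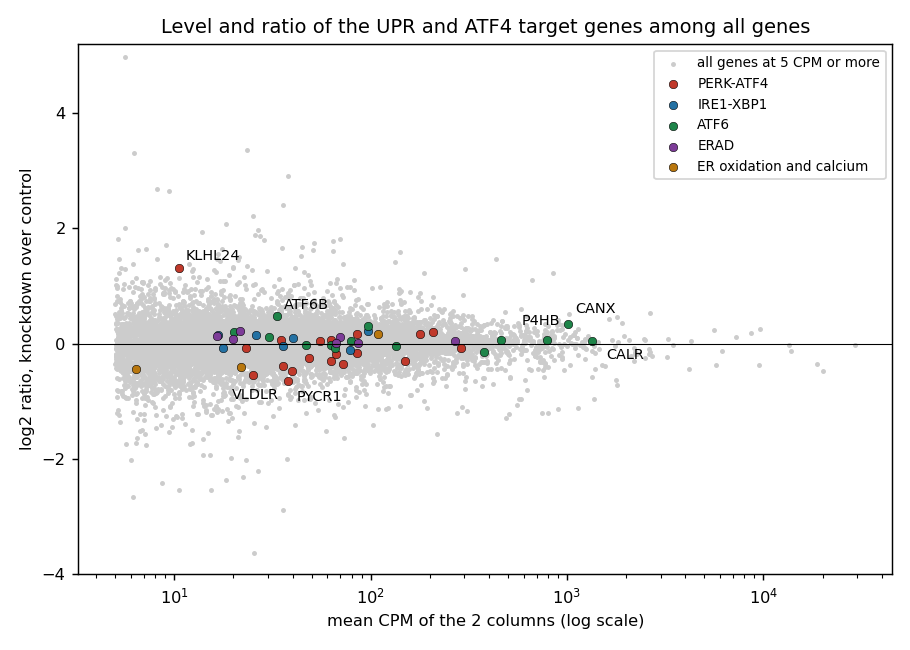
Mean CPM of the 2 columns (x axis, log scale) against the log2 ratio of knockdown over control (y axis) for all 10689 genes at 5 CPM or more in grey and the 50 members in the colour of their branch. Most members sit in the middle of the grey cloud at their level, and KLHL24 sits at its upper edge.

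The eIF2alpha kinases and phosphatase differed little between the columns. PERK itself (EIF2AK3), the kinase of ER stress, had 600 reads against 691, at 35.7 CPM (32.9 to 38.7) in knockdown cells and 34.4 CPM (31.9 to 37.0) in control cells and a log2 ratio of 0.06 (-0.10 to 0.22). GCN2 (EIF2AK4), the kinase of amino acid shortage, was lower at 56.7 CPM against 69.6 CPM, with -0.30 (-0.42 to -0.18). HRI (EIF2AK1), the kinase of heme shortage, had 279 CPM against 295 CPM. Their substrate eIF2alpha (EIF2S1) had 189 CPM against 169 CPM and a log2 ratio of 0.16 (0.09 to 0.23). GADD34 (PPP1R15A), the stress-induced phosphatase subunit that reverses the phosphorylation of eIF2alpha and is transcribed under ATF4 and CHOP, was lower at 44.3 CPM (41.2 to 47.6) against 52.5 CPM (49.4 to 55.8) and a log2 ratio of -0.24 (-0.38 to -0.11). Its constitutive counterpart CReP (PPP1R15B) had 64.3 CPM against 61.3 CPM. None of these 6 genes reached 1.5-fold.

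Enzymes of amino acid synthesis, a classic output of ATF4, lay on both sides of control. Of 8 members, 7 were at 5 CPM or more, of which 3 were higher and 4 lower, with a median log2 ratio of -0.30. PYCR1, which makes proline from pyrroline-5-carboxylate, had 494 reads in knockdown cells and 928 in control cells, 29.4 CPM (26.9 to 32.1) against 46.2 CPM (43.3 to 49.2). The log2 ratio of -0.65 (-0.81 to -0.49) is a 1.57-fold lower level, and 3.38% of all genes had a lower ratio. ALDH18A1, the enzyme that opens the same pathway from glutamate, had 56.1 CPM against 54.5 CPM and a ratio of 0.04 (-0.09 to 0.17), so of the 2 proline enzymes in the set PYCR1 was the lower one.

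Within serine synthesis the first enzymes and the last one stood on opposite sides of the control. PHGDH, which takes 3-phosphoglycerate out of glycolysis, had 63.4 CPM (59.7 to 67.3) against 80.9 CPM (77.0 to 84.9) and a log2 ratio of -0.35 (-0.46 to -0.24). PSAT1, the aminotransferase that follows, had 134 CPM (129 to 140) against 165 CPM (159 to 171) and a ratio of -0.30 (-0.37 to -0.22). PSPH, the phosphatase that releases serine, had 221 CPM (214 to 228) against 193 CPM (187 to 200) and a ratio of 0.19 (0.13 to 0.26). In transsulfuration, which makes cysteine, CBS was lower at 30.8 CPM against 40.6 CPM with -0.39 (-0.56 to -0.23). CTH, the next enzyme, was below the required level with 68 and 76 reads, 4.05 CPM against 3.78 CPM. ASNS, asparagine synthetase, had 90.6 CPM (86.1 to 95.2) against 80.4 CPM (76.5 to 84.4) and a log2 ratio of 0.17 (0.07 to 0.27).

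**Figure D3:**
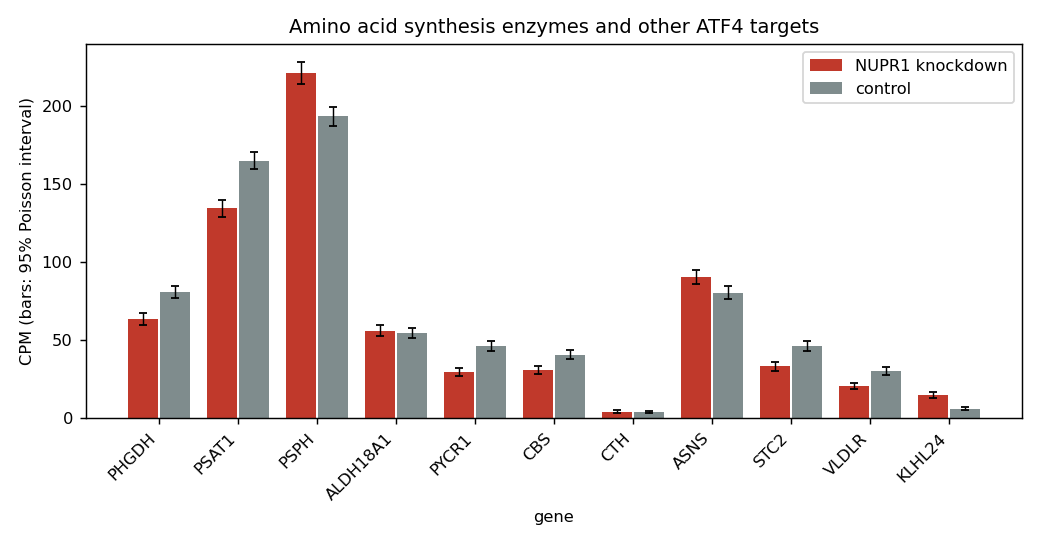
CPM (y axis, from 0) of 8 enzymes of amino acid synthesis and 3 other ATF4 targets in knockdown cells (red, left) and control cells (grey, right), with 95% Poisson intervals. PHGDH, PSAT1, PYCR1, CBS, STC2 and VLDLR are lower in knockdown cells, and PSPH, ASNS and KLHL24 are higher.

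The bZIP transcription factors of the branch lay slightly below control. CEBPB, which is induced under stress and pairs with ATF4, had 80.1 CPM against 89.9 CPM and a log2 ratio of -0.17 (-0.27 to -0.06). CEBPG, a further dimer partner of ATF4, had 62.9 CPM against 70.9 CPM, also at -0.17 (-0.29 to -0.06). ATF5, whose mRNA is translated under eIF2alpha phosphorylation much as that of ATF4, had 22.7 CPM against 23.8 CPM, with an interval of -0.27 to 0.13.

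Of the other ATF4 targets, KLHL24 went one way, and STC2 and VLDLR the other. KLHL24, a kelch protein that recruits substrates to a CUL3 ubiquitin ligase and is best known for the turnover of a keratin in skin, had 252 reads in knockdown cells and 121 in control cells. KLHL24 thus stood at 15.01 CPM (13.21 to 16.98) against 6.02 CPM (4.996 to 7.19), with a log2 ratio of 1.32 (1.00 to 1.64) or 2.49-fold. The intervals of the levels do not overlap, and 0.412% of all genes had a higher ratio than KLHL24. VLDLR, a lipoprotein receptor induced by PERK-ATF4 signalling in liver, had 20.5 CPM (18.4 to 22.8) against 30.1 CPM (27.7 to 32.5), with -0.55 (-0.75 to -0.36). STC2, a secreted glycoprotein induced by ER stress, had 33.1 CPM (30.4 to 36.0) against 46.1 CPM (43.2 to 49.1), with -0.48 (-0.63 to -0.32). Around the 1.5-fold threshold, PYCR1 lay just inside at 1.57-fold lower and VLDLR just outside at 1.47-fold lower, followed by STC2 at 1.39-fold lower and ATF6B at 1.39-fold higher.

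The promoter of KLHL24 is shown because this gene had the largest difference in the set. The window covers 250 bases before and 50 bases after the transcription start at chr3:183635373-183635672 on the plus strand (RefSeq, GRCh38.p14, which is not the hg19 build of the count table). It was searched on both strands for the C/EBP-ATF response element of ATF4 targets (CARE, TGATGNAA), the XBP1 core box TGACGTGG and the ER stress element of ATF6 targets (ERSE, CCAAT and CCACG with 9 bases between them), and held none of them.
KLHL24: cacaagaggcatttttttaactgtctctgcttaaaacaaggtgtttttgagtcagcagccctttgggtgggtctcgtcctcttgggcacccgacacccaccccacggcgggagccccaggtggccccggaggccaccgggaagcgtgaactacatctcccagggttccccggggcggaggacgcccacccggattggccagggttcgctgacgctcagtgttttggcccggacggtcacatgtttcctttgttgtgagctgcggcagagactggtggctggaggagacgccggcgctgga

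The promoter table has 59 windows for 45 of the 52 members, since a gene can have several starts. PYCR1 has no window there, so its promoter was neither shown nor searched. CARE letters were found in 5 of these 59 windows, each of a different gene, and in 1270 of all 35116 windows (3.62%). The 5 were ASNS at 68 bases before the start (log2 ratio 0.17), CEBPG at 42 bases (-0.17), PPP1R15B at 227 bases (0.07), HERPUD1 at 176 bases (0.21) and CREB3L2 at 17 bases after the start (-0.08). All 5 genes were within 1.5-fold of control. A letter match describes the sequence and is not evidence of binding.

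IRE1-XBP1 members were near their control levels, with 4 of 7 higher, 3 lower and none past 1.5-fold. IRE1alpha (ERN1), the sensor kinase and ribonuclease, had 296 reads against 320, which puts it at 17.6 CPM (15.7 to 19.8) against 15.9 CPM (14.2 to 17.8) and a log2 ratio of 0.15 (-0.09 to 0.38). XBP1, whose mRNA IRE1 splices and whose transcription ATF6 raises, had 105 CPM (99.7 to 110) against 90.01 CPM (85.9 to 94.3) and a ratio of 0.22 (0.12 to 0.31), the highest of this branch. SEC61B, a subunit of the channel through which new proteins enter the ER, had 27.5 CPM against 24.8 CPM. SEC24D, a cargo adaptor of the COPII coat that carries proteins out of the ER, had 17.1 CPM against 18.1 CPM. The mannose-trimming proteins that mark misfolded glycoproteins for degradation lay near control, EDEM2 slightly below it, with EDEM1 at 35.2 CPM against 36.3 CPM, EDEM2 at 75.5 CPM against 82.0 CPM and EDEM3 at 41.7 CPM against 39.1 CPM. Of these 7 intervals, only those of XBP1 and EDEM2 did not include equal levels.

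In the ATF6 branch 9 of 14 members were higher and 5 lower, with a median log2 ratio of 0.05 and none past 1.5-fold. ATF6, the membrane-bound sensor, had 1041 reads against 1274, which is 62.0 CPM (58.3 to 65.9) against 63.4 CPM (60.0 to 67.0) and a ratio of -0.03 (-0.15 to 0.09). Its relative ATF6B stood apart at 38.6 CPM (35.7 to 41.7) against 27.9 CPM (25.6 to 30.3), with 0.47 (0.31 to 0.64), the highest of this branch. ATF6B lies in the major histocompatibility region, for which hg19 carries alternative haplotypes, and how reads that match several copies were counted is unstated in the labels. CREB3 and CREB3L2, further factors released from the ER membrane by cleavage, had 46.9 CPM against 47.4 CPM and 64.0 CPM against 67.7 CPM.

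The folding machinery of the ER was abundant and divided by family member. Calreticulin (CALR), a lectin chaperone of the ER lumen, had 1360 CPM (1343 to 1378) against 1319 CPM (1303 to 1335) and a log2 ratio of 0.04 (0.02 to 0.07). Its membrane-bound partner calnexin (CANX) was higher at 1133 CPM (1117 to 1149) against 889 CPM (876 to 902) and a ratio of 0.35 (0.32 to 0.38) or 1.27-fold. Among disulfide isomerases, PDIA3 (ERp57), which works with both lectins, had 107 CPM against 86.3 CPM and a ratio of 0.31 (0.21 to 0.40). Reads of PDIA3 can also match its processed pseudogene PDIA3P, a row with 24 reads against 15, so its level is uncertain. PDIA4 (ERp72) went the other way at 358 CPM against 397 CPM, with -0.15 (-0.20 to -0.10). P4HB (PDI) and PDIA6 (P5) had 806 CPM against 771 CPM and 471 CPM against 451 CPM, each with a ratio of 0.06.

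The chaperone cofactors and secreted factors of the ATF6 branch, 4 members, lay near control. SDF2L1, an ER chaperone cofactor, had 362 reads against 378, which puts it at 21.6 CPM (19.4 to 23.9) against 18.8 CPM (16.96 to 20.8), with a log2 ratio of 0.20 (-0.02 to 0.41). HYOU1 (GRP170), the nucleotide exchange factor of the chaperone BiP, had 133 CPM (127 to 138) against 136 CPM (131 to 141), with -0.04 (-0.12 to 0.05). MANF, a secreted protein of stressed cells, had 80.7 CPM against 78.7 CPM, with 0.04 (-0.07 to 0.14). CRELD2, a further secreted ER stress protein, had 31.5 CPM (28.9 to 34.3) against 29.2 CPM (26.8 to 31.6), with 0.11 (-0.06 to 0.28). The intervals of these 4 genes include equal levels, which does not show that they were equal.

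ERSE letters were found in 8 of the 59 member windows, which belong to 6 genes because the 3 overlapping windows of CANX hold the same site, and in 27 of all 35116 windows (0.0769%). These sites are shown because they mark genes of the set that share a known UPR element, whatever their branch, with the element written 5′ to 3′ in its own orientation and its fixed letters in capitals.
CALR: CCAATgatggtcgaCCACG
CANX: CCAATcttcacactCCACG
PDIA6: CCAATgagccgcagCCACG
CRELD2: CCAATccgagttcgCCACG
XBP1: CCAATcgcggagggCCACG
ERO1LB: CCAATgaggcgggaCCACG

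The 6 genes that carry this element had log2 ratios of 0.04 (CALR), 0.35 (CANX), 0.06 (PDIA6), 0.11 (CRELD2), 0.22 (XBP1) and -0.43 (ERO1LB), so they did not share a direction or a size. The XBP1 core box was found in 2 of the 59 member windows, those of HYOU1 and ALDH18A1, and in 256 of all windows (0.729%). It shares the letters CCACG with the ERSE, and no member held both. Promoters of 4 inducible members follow, with the whole of any match in capitals. CRELD2 (chr22:49918384-49918683, plus strand) holds an ERSE on the opposite strand, HYOU1 (chr11:119057156-119057455, minus strand) an XBP1 core box and HERPUD1 (chr16:56931892-56932191, plus strand) a CARE on the opposite strand. SDF2L1 (chr22:21642052-21642351, plus strand) held none of the 3 in this window. Only the exact letters of these 3 motifs were searched. Other spacings or forms of an ER stress element were not looked for in any window, so a missing match, as in HERPUD1 or SDF2L1, does not show that such an element is absent.
CRELD2: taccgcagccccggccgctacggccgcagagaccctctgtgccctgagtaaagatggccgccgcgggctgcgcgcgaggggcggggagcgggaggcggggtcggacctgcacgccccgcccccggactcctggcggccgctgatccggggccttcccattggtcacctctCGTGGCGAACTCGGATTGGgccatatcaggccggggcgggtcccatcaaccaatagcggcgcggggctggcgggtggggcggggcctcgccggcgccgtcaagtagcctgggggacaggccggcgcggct
HYOU1: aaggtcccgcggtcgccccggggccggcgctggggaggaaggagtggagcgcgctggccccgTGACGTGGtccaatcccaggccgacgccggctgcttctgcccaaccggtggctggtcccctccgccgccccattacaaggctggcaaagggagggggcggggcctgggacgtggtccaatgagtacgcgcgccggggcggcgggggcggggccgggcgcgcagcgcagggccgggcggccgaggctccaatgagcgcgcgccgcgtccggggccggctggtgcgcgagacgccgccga
HERPUD1: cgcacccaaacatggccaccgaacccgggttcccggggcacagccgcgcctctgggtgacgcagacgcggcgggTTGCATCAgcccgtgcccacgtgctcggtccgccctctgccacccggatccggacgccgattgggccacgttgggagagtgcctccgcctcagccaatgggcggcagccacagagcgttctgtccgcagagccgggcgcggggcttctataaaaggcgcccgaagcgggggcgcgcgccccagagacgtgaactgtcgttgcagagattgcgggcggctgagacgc
SDF2L1: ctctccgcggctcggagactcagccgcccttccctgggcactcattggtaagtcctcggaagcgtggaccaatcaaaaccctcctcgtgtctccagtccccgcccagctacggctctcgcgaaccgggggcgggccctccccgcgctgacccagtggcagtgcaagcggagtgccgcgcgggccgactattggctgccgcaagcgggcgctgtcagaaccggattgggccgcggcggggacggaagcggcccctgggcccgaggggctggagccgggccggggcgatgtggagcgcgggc

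ERAD genes had the narrowest range of any branch with 7 or more members measured. HERPUD1 (HERP), which organises the Hrd1 complex and is among the most inducible UPR genes, had 390 reads against 403, which puts it at 23.2 CPM (21.0 to 25.6) against 20.1 CPM (18.1 to 22.1) and a log2 ratio of 0.21 (0.01 to 0.42). SEL1L, the adaptor of the Hrd1 ubiquitin ligase, had 72.9 CPM against 67.2 CPM, with 0.12. SYVN1, the ligase Hrd1 itself, had 17.2 CPM against 15.6 CPM, with 0.14 (-0.10 to 0.37). The channel-associated Derlins lay near control, with DERL1 at 66.5 CPM against 66.3 CPM and DERL2 at 20.4 CPM against 19.3 CPM. DERL3 had 3 reads in knockdown cells and 0 in control cells, too few for a ratio. OS9, a lectin that hands glycoproteins to Hrd1, had 273 CPM against 265 CPM. SELS, a selenoprotein that recruits the p97 ATPase, had 86.2 CPM against 85.7 CPM. All 7 measured members were higher by this scaling, but 5 of 7 were with median-of-ratios scaling and 5 of 7 with a trend on gene length removed; DERL1 and SELS lay at 0.01 each.

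The 3 genes of ER oxidation and calcium differed from one another. ERO1L (ERO1alpha), which passes oxidising equivalents to PDI and is also induced by hypoxia, had 115 CPM (110 to 120) against 103 CPM (98.1 to 107) and a log2 ratio of 0.17 (0.08 to 0.26). Its paralog ERO1LB (ERO1beta) was near the required level with 91 reads against 147, which gave 5.42 CPM (4.36 to 6.65) against 7.31 CPM (6.18 to 8.60), with -0.43 (-0.83 to -0.05). WFS1 (wolframin), an ER membrane protein of calcium homeostasis, had 18.7 CPM (16.7 to 20.9) against 24.9 CPM (22.7 to 27.2), with -0.41 (-0.62 to -0.21).

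Levels between genes were compared per length, with the deposited RPKM (reads scaled by column total and gene length). CALR was highest at 728 RPKM in knockdown cells and 692 RPKM in control cells, followed by P4HB at 320 against 300 RPKM and CANX at 226 against 174 RPKM. The sensors were far lower, with PERK (EIF2AK3) at 7.87 RPKM against 7.42 RPKM, ATF6 at 6.23 against 6.24 RPKM and IRE1alpha (ERN1) at 4.50 against 3.99 RPKM. At the low end, ERO1LB had 1.04 RPKM against 1.37 RPKM. KLHL24 had 1.93 RPKM against 0.76 RPKM over a deposited length of 7942 bases, so it was the lowest measured member in control cells and the next to lowest in knockdown cells. ATF6B has a deposited length of 15192 bases, the longest among the members, which sets its 2.60 RPKM against 1.84 RPKM. Whether this length includes alternative haplotype copies is unstated in the labels, so its RPKM may be too low to set beside that of other genes.

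Further genes of the pathway were taken from 13 lists with 218 genes, of which 202 reached 5 CPM. Of these 202, 115 were higher and 87 lower, with a median log2 ratio of 0.04, beside 5469 higher and 5220 lower of all 10689 genes. Past 1.5-fold were 3 of the higher and 7 of the lower ones. These 7 include NUPR1, the knockdown target itself, whose lower level is no finding about the pathway. They also include ATP2A3, which like NUPR1 reached 5 CPM in control cells only. The share past 1.5-fold was 8.17% over all genes and 4.61% over the 3104 genes at or above the members' median level. The second is nearer in abundance, since these 202 genes had a median of 83.1 CPM. Regulators of the ATF4 pathway divided 11 to 7 with a median of 0.03. ATF4 itself had 215 CPM (208 to 222) against 225 CPM (219 to 232) and a ratio of -0.07 (-0.13 to -0.01). Its partner in cell death, DDIT3 (CHOP), was higher with 295 reads against 232, which gave 17.6 CPM (15.6 to 19.7) against 11.5 CPM (10.1 to 13.1) and a ratio of 0.61 (0.35 to 0.86). TRIB3, a pseudokinase target of both, had 0.23 (0.05 to 0.42), and the stress gene ATF3 had 0.51 (0.27 to 0.76). Besides DDIT3, only the knockdown target NUPR1 was past 1.5-fold among these regulators. Amino acid transporters under ATF4 had a median of 0.04 with SLC6A9, a glycine transporter, at -0.71 (-1.10 to -0.33). One-carbon and transaminase genes had 0.12 with ALDH1L2, a mitochondrial folate enzyme, at -0.64 (-0.82 to -0.47). Cytosolic tRNA synthetases had a median of -0.01, 9 higher and 11 lower, with 0 of 20 past 1.5-fold.

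On the ER side, chaperones of the HSP70, HSP90 and DNAJ families had a median of -0.03 with 4 of 10 higher. HSPA5 (BiP), the main ER HSP70 and a standard readout of the UPR, had 12972 reads against 15956, which puts it at 772 CPM (759 to 786) against 794 CPM (782 to 806) and a ratio of -0.04 (-0.07 to -0.01). DNAJC3 was higher, with a ratio of 0.42 (0.30 to 0.53), and HSP90B1 lower, with -0.17 (-0.19 to -0.15). Folding enzymes outside the members had -0.06, with the ER prolyl isomerases FKBP7 at -0.62 (-0.997 to -0.26) and FKBP14 at -0.59 (-0.79 to -0.39). Translocation and signal peptidase genes had 0.05, oligosaccharyltransferase 0.10 and COPII genes 0.06, where SEC31B, a coat subunit, had -0.71 (-1.06 to -0.35). ERAD genes outside the members had a median of 0.14, with 23 of 32 higher and 9 lower. UBXN8, an ER anchor of p97, had 332 reads against 261 and a ratio of 0.61 (0.37 to 0.85). FAM8A1, a cofactor of Hrd1, had the same 295 and 232 reads as DDIT3 but is a separate row with its own length. Site proteases and regulators of ATF6 and IRE1 had 0.05. Among the 13 lists, ER calcium handling had the lowest median at -0.23, with 9 of 12 lower. Its calcium pump ATP2A3 had 70 reads against 138, 4.17 CPM against 6.87 CPM, and a ratio of -0.72 (-1.16 to -0.30). ATP2A3 thus reached 5 CPM in control cells only, and its mean passed the required level through that column. ER-phagy receptors had the highest at 0.25, with 7 of 8 higher and none past 1.5-fold.

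**Figure D4:**
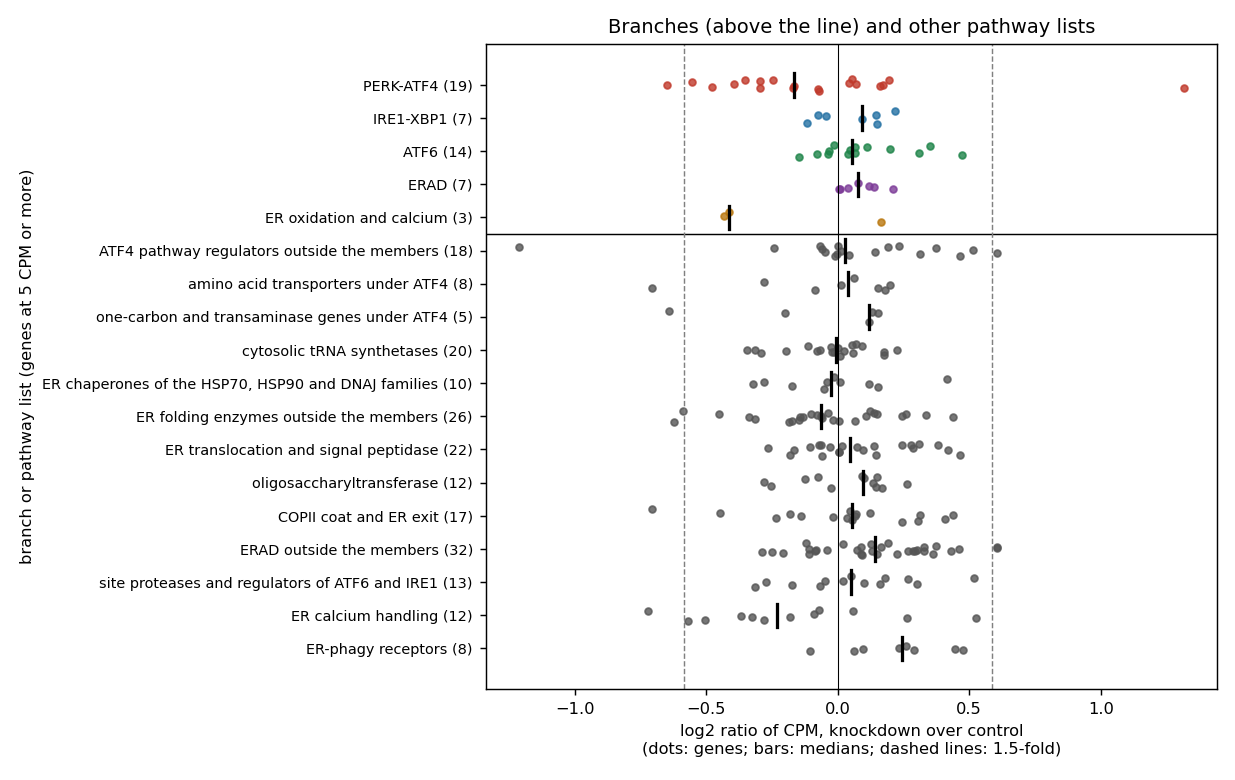
Log2 ratio of CPM, knockdown over control (x axis), for genes at 5 CPM or more in each branch of the set (coloured, above the line) and each further pathway list (grey), with the number of genes in brackets, medians as black bars and dashed lines at 1.5-fold. The branch and list medians lie between -0.41 and 0.25, and the 2 points farthest from 0 are KLHL24 at 1.32 and NUPR1, the knockdown target, at -1.21.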

How the data were processed

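Whole-number read counts per gene were deposited by the authors for 19402 rows, with 1 column per group. The RPKM values deposited by the authors equal count over deposited gene length and 1 constant per column within 1% for all 11150 genes above 1 RPKM in both columns. TopHat2 2.0.10, edgeR 3.2.2 and hg19 are named per the submitters' processing notes. Settings, annotation, strand use and the way single-end and paired-end libraries were merged go unstated in the labels. The planned fallback for 1 column per group, ratios without a test, was therefore used.

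The knockdown column's name differs by 1 letter from its library titles. Symbols turned into dates (26) were restored, and 3 rows with a broken length, holding 0.0872% of knockdown and 0.0509% of control reads, were left out. There were 0 further columns of values. TMM factors (1.01 and 0.991, from the 14175 rows that passed filterByExpr with a minimum count of 10 and total of 15) came from edgeR 4.0.16 in R 4.3.3, and exact intervals from scipy 1.17.1. One read is 0.0595 CPM or 0.0498 CPM. If mates were counted separately, intervals are too narrow. Ratio code was tested on simulated counts of genes with a mean of at least 5 CPM. Rows at or near 0 reads were not checked in this way.

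The members, branches, gene lists and the 1.5-fold threshold were chosen with earlier results of these data known. All members are named, and from each further list up to 4 genes past 1.5-fold. ATF4, TRIB3, ATF3, HSPA5, DNAJC3 and HSP90B1 lie outside this rule and were named as well-known genes of the pathway, after their values were seen. Promoters are RefSeq windows of GRCh38.p14, matched by symbol or synonym.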

Additional observations from a re-analysis of the deposited data

How the results depend on the processing

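No paired analysis was possible because each group has a single column of values, and leaving out each replicate was not run for the same reason. KLHL24 was past 1.5-fold higher in the 6 alternatives run on scaling, unit, length and abundant rows, and the 3 filters kept it. PYCR1 was past 1.5-fold lower in these 9 except with log2(RPKM + 1), where its ratio was -0.58, so that 1 member remained past the threshold in place of 2. At 2-fold, 1 member passed, KLHL24. The median of the members ran from 0.02 with the length trend removed to 0.07 with log2(RPKM + 0.1). The median of ER oxidation and calcium was -0.22 with log2(RPKM + 1) in place of -0.41, since ERO1LB has about 1 RPKM and the added 1 shrinks its ratio. The other 55 of 56 alternative medians moved by less than 0.119, the median half-width of the members' intervals, and of 300 ratios of single members under the 6 alternatives that can move a ratio, 295 stayed inside their interval or, for KLHL24 and PYCR1, past the threshold, and neither of these 2 changed sign. The 3 filters cannot move a single gene's ratio and are not counted there. Scaling by totals alone would raise every log2 ratio by 0.027, and with it 10 of 14 ATF6 members were higher in place of 9. Over all 10689 genes, 398 higher and 475 lower calls became 276 and 229 with log2(RPKM + 1). At a mean of 1 CPM there were 747 and 938 calls among 13094 genes. With no filter there were 3104 and 2729 among 19399 genes, but 0 reads were counted as 3 reads for the ratio. This can reverse the direction of scarce genes, as for AFP with 0 reads against 1 and a ratio of 1.84. The unfiltered calls therefore do not count higher and lower genes. Levels of 1 to 3 reads, such as DERL3, are at the limit of this depth.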
